A study of Mus musculus with 32 samples.

Results

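Genes that encode scaffold proteins of actin adhesions and of the Z-disc were followed in brain arteries of mice that lack Notch3 and of mice that model CADASIL, a hereditary disease of small brain arteries caused by NOTCH3 mutations. The genes were Xirp1, Sorbs2, Sorbs3, Synpo2, Ldb3, Pdlim3, Pdlim5, Fblim1 and Nexn, which make up 9 of the 55357 genes in the count table, and all 9 passed the filter on low counts in every comparison. The set was chosen by gene name with measured changes in view: Xirp1 and Sorbs2 were lower in the knockout and Fblim1 was higher in the CADASIL model. The changes of the 9 genes in those mutant comparisons, and the difference between those changes, are therefore given as a description without p-values.

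RNA sequencing had been performed on brain arteries from 32 mice, with 8 mice and 8 libraries in each of 4 groups. Notch3-/- mice, which lack both copies of Notch3, and Notch3+/+ mice were 3 months old. TgNotch3R169C mice carry a rat genomic Notch3 transgene with the CADASIL mutation R169C in addition to their own mouse Notch3, and overexpress the receptor. These mice and their WT controls, which are non-Tg, were 12 months old. All groups were on a C57BL/6 background, all were untreated, and each mutant had age-matched littermates as controls. The study used both sexes, and the sex of each mouse was not used here. The total count per library ranged from 20289487 to 54481934. The arteries had been dissected under a stereomicroscope, so a library can hold any cell type of the vessel wall and of adjoining tissue.

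The label check used Notch3 itself. Its level was 83.6 ± 12 CPM (mean ± SD, n = 8) in the 3-month-old controls, where CPM is the count scaled to the size of the library, and fell to 16.2 ± 1.82 CPM in the knockout. In the older mice it was 73.2 ± 8.19 CPM in the WT group and 182 ± 34.5 CPM in the transgenic group. Both differences went the way the labels say, and neither pair of groups overlapped. Defining markers of arteries were present in all libraries, with a summed level of 10 smooth muscle markers between 1870 and 5980 CPM. Transcripts of the choroid plexus, a secretory tissue inside the brain ventricles, marked a subset of the libraries. The summed level of 8 choroid plexus markers exceeded 2000 CPM in 1 of 8 Notch3-/- libraries, 4 of 8 WT libraries and 2 of 8 TgNotch3R169C libraries, and in 0 of 8 Notch3+/+ libraries. Counts of calls and correlations are also given without these 7 libraries.

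Smooth muscle cells hold their contractile filaments at dense bodies and dense plaques, which correspond to the Z-discs and adhesion sites of striated muscle. At these sites α-actinin bundles actin, and integrins reach actin through talin, vinculin, filamin and adaptor proteins. The 9 genes encode proteins of that layer. Xirp1 encodes Xin, which binds and stabilizes actin filaments. Sorbs2 (ArgBP2) and Sorbs3 (vinexin) encode SH3 adaptors that bind vinculin. Ldb3 (Cypher), Pdlim3 (ALP) and Pdlim5 (ENH) encode PDZ-LIM proteins that bind α-actinin. Synpo2 encodes synaptopodin-2, which binds actin, α-actinin and filamin, and Nexn encodes nexilin, an actin-binding protein of the Z-disc. Fblim1 encodes migfilin, a LIM protein that binds filamin and kindlin-2 at adhesions. NOTCH3 is the main NOTCH receptor of arterial smooth muscle and is needed for its maturation.

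Promoter sequences are shown for the members with the clearest group differences for which a RefSeq window was at hand, because several of these genes were lower in the same groups of mice. Windows of 300 bases, from 250 before to 50 after an annotated start, were found for 6 of the 9 genes (11 windows, RefSeq, GRCm38.p6). None was at hand for Xirp1, Sorbs3 and Nexn. The motifs searched, on both strands, were the CArG box, to which serum response factor binds in smooth muscle genes, and the MEF2 motif, bound by MEF2 factors. TGGGAA (the core bound by RBPJ, the DNA-binding partner of NOTCH), GGAATG (bound by TEAD factors) and CAGCTG (an E-box) were searched as well. Each sequence runs 5′ to 3′ on the strand of the gene, and capitals mark every match to any of these motifs.
Sorbs2 first window (chr8:45507538-45507837, plus strand): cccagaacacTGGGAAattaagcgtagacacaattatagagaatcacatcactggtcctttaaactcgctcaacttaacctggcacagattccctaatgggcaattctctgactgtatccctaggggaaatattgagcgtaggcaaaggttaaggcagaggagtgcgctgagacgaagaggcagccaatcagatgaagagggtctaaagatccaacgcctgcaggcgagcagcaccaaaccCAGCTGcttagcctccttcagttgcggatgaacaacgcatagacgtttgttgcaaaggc
Ldb3 first window (chr14:34588632-34588931, minus strand): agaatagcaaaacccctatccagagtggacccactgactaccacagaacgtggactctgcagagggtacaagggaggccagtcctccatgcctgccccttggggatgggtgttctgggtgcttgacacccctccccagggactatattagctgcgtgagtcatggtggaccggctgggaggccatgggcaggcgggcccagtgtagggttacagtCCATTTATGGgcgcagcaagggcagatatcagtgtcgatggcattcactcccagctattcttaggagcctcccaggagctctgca
Pdlim3 (chr8:45885237-45885536, plus strand): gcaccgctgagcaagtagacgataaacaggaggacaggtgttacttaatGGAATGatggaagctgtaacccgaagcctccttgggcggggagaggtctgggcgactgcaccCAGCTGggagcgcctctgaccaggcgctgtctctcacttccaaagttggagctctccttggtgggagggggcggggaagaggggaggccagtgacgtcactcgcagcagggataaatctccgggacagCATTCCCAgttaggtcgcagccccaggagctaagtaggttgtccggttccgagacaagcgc
Synpo2 (chr3:123236100-123236399, minus strand): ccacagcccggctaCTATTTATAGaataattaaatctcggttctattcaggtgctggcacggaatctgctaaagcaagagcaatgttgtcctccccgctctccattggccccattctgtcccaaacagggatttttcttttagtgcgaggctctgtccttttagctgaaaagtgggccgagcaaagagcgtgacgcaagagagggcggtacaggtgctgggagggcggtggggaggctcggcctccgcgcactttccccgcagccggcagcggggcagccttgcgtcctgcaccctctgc
Fblim1 first window (chr4:141606003-141606302, minus strand): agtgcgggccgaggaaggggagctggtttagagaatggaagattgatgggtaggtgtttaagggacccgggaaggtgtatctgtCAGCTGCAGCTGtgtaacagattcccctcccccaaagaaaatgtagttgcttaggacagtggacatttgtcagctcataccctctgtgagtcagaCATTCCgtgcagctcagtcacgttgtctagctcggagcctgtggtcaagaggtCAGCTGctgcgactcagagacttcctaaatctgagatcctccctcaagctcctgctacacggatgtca

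The CArG box in Ldb3, CCATTTATGG, lay 35 to 26 bases before the start, and a second Ldb3 window that overlaps the first held the same match. A CArG box was present in 1.63% of all 32851 windows and in 2 of the 11 windows of these genes, both of Ldb3. The MEF2 motif in Synpo2, CTATTTATAG, was the only MEF2 match among the 11 windows, against 3.19% of all windows. TGGGAA occurred in 4 of the 11 windows (Sorbs2, Pdlim3, Pdlim5 and the second Fblim1 window) and in 25.6% of all windows. GGAATG occurred in 2 of 11 windows against 14.7%, and CAGCTG in 3 of 11 against 16.3%. In Pdlim3 a TGGGAA match and a GGAATG match, both on the minus strand, overlapped just before the start. These matches describe letters in the windows and not bound sites.

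Sorbs2 and Pdlim3 lie beside each other on chromosome 8, on the same strand, 57.6 kb apart with 0 protein-coding genes between them (GENCODE vM21, GRCm38). The other genes lie on chromosomes 9 (Xirp1), 14 (Sorbs3 and Ldb3), 3 (Synpo2, Pdlim5 and Nexn) and 4 (Fblim1). The only protein-coding gene whose annotated span overlaps a member is Cx3cr1, a microglial receptor gene that overlaps Xirp1 on the same strand, and their exons share 0 bases. Mean Cx3cr1 levels were 84.7, 78.3, 78.3 and 80.1 CPM in Notch3+/+, Notch3-/-, WT and TgNotch3R169C mice. On the opposite strand, Sorbs2os lies over Sorbs2 and reached at most 0.35 CPM in any library, and Gm49417 lies over Sorbs3 at 8.26 to 17.3 CPM.

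Levels of the 9 genes differed widely. Per kilobase of exon, Sorbs3 was the most abundant in Notch3+/+ arteries at 57.2 ± 4.27 RPKM, followed by Pdlim5 at 26.7 ± 3.36 RPKM and Fblim1 at 17.2 ± 3.26 RPKM (mean ± SD, n = 8). Nexn, Synpo2, Sorbs2 and Pdlim3 followed at 9.66, 8.91, 8.28 and 6.0 RPKM, and their ranges over mice overlapped. Ldb3 stood at 2.53 ± 0.601 RPKM and Xirp1 was the lowest at 1.39 ± 0.295 RPKM. Neighbours in this order that did not overlap over mice were Sorbs3 and Pdlim5, Pdlim3 and Ldb3, and Ldb3 and Xirp1. Exon lengths here are the union of all annotated exons, so genes with many alternative exons, such as Sorbs2 with 36 transcripts, are placed low. Even Xirp1, the scarcest, was counted between 45 and 478 times in each library.

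**Figure D1:**
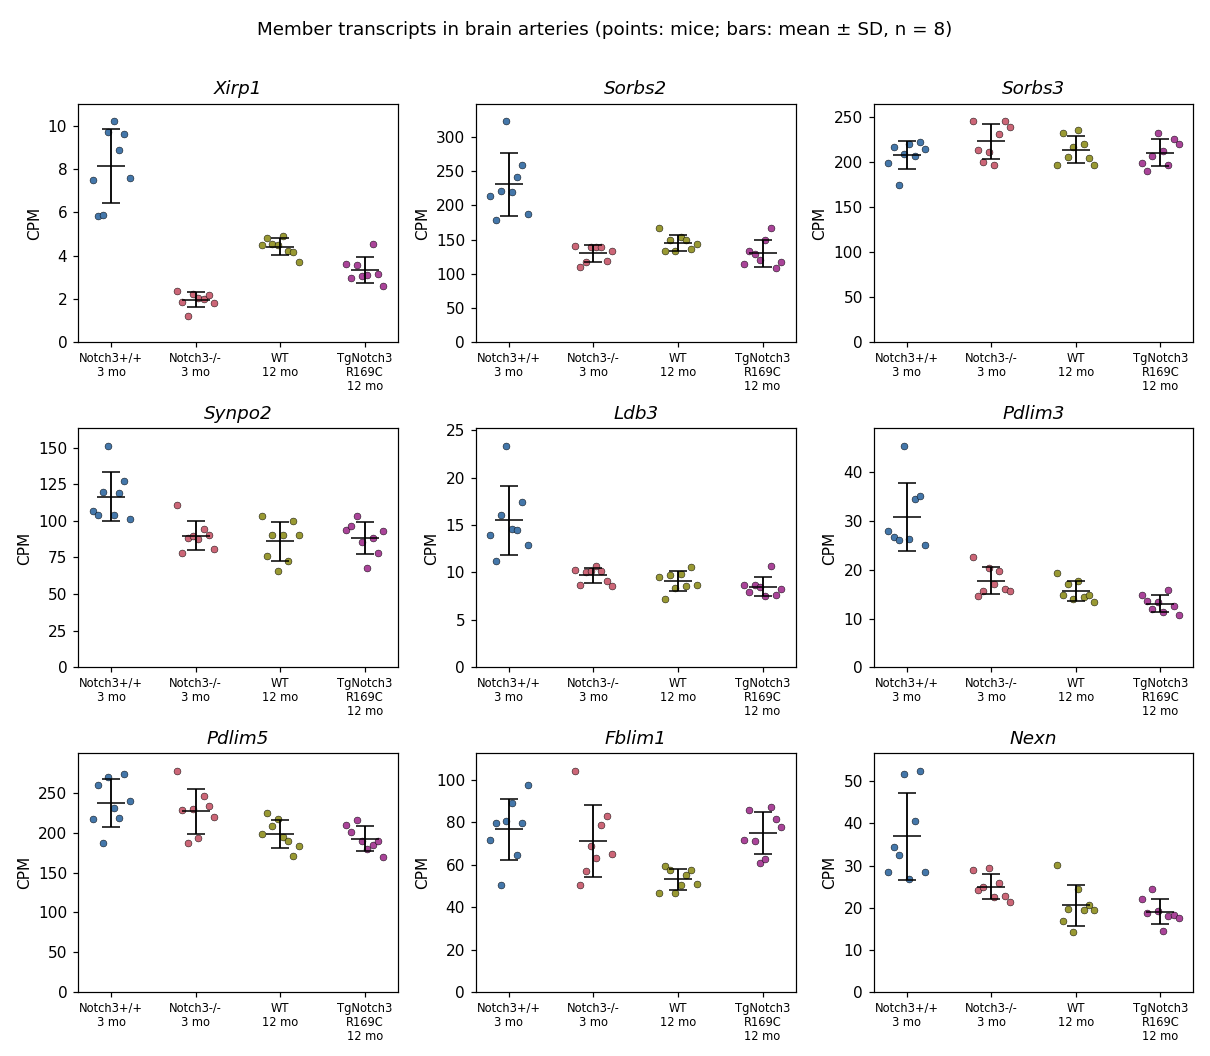
CPM of each of the 9 genes in each mouse (points; vertical axes from 0) for the 4 groups of 8 mice, with mean and SD as bars. Xirp1, Sorbs2, Ldb3 and Pdlim3 are highest in Notch3+/+ mice without overlap with the other 3 groups, Sorbs3 is level, and Fblim1 is lowest in WT mice.

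The comparison of Notch3-/- with Notch3+/+ arteries addressed which transcripts depend on Notch3. Xirp1, Sorbs2, Pdlim3 and Ldb3 were lower in the knockout, Sorbs3, Pdlim5 and Fblim1 stood close to the control level, and Synpo2 and Nexn lay between. Of the 9 genes, 4 passed an adjusted p of 0.05 in the lower direction and 0 in the higher direction (edgeR's quasi-likelihood test, Benjamini-Hochberg over 17714 genes; 6 of 9 had an unadjusted p under 0.05). Of all genes tested, 0.452% were called lower. The choice of the members used this comparison, so nothing is read from their count. In bulk tissue, fewer cells of a type and less RNA per cell cannot be told apart.

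Xirp1 ranged from 5.82 to 10.2 CPM in Notch3+/+ mice, with a median of 8.23 CPM, and from 1.24 to 2.35 CPM in Notch3-/- mice, with a median of 2.03 CPM. Every knockout mouse was below every control mouse. The log2 fold change was -2.04 ± 0.148 (SE), which is 0.243 of the control level, and 0.0790% of the genes tested had a lower fold change. Sorbs2 ranged from 179 to 323 CPM (median 221 CPM) in Notch3+/+ mice and from 110 to 141 CPM (median 136 CPM) in Notch3-/- mice. The groups did not overlap, and the log2 fold change was -0.83 ± 0.102. Its paralog Sorbs3 had medians of 211 and 222 CPM and overlapping ranges, with a log2 fold change of 0.10 ± 0.0574 (95% confidence interval -0.02 to 0.23).

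Of the PDZ-LIM genes, Pdlim3 and Ldb3 were lower and Pdlim5 was not called. Pdlim3 ranged from 25.1 to 45.3 CPM (median 27.4 CPM) in controls and from 14.7 to 22.6 CPM (median 16.6 CPM) in knockouts, which corresponds to a log2 fold change of -0.80 ± 0.126. Ldb3 ranged from 11.2 to 23.3 CPM (median 14.6 CPM) in controls and from 8.61 to 10.7 CPM (median 10 CPM) in knockouts, a log2 fold change of -0.67 ± 0.117. For both genes the highest knockout mouse was below the lowest control mouse. Pdlim5 ranged from 187 to 273 CPM in controls and from 187 to 277 CPM in knockouts, with a log2 fold change of -0.06 ± 0.0849. Groups that did not overlap in the lower direction were found for 4 of the 9 genes and for 0.231% of all genes tested.

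The remaining actin binders overlapped between the groups. Synpo2 had a median of 113 CPM in controls and 88.9 CPM in knockouts, with a log2 fold change of -0.37 ± 0.0848. Nexn had medians of 33.5 and 24.6 CPM and a log2 fold change of -0.56 ± 0.140. The Fblim1 ranges were 50.6 to 97.5 CPM in controls and 50.5 to 104 CPM in knockouts, with a log2 fold change of -0.10 ± 0.143. The median log2 fold change over the 9 genes was -0.56, against -0.0011 over all genes tested. Without the Notch3-/- library rich in choroid plexus transcripts, the same 4 genes were called and the log2 fold change of Xirp1 was -2.02.

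Smooth muscle markers moved with these genes. Of the 10 contractile markers, 8 were lower and 0 higher in Notch3-/- arteries, with a median log2 fold change of -0.63. The myosin heavy chain Myh11 changed by -1.04 and α-actin (Acta2) by -0.63. Their summed level spanned 3640 to 5980 CPM in control arteries and 2560 to 3790 CPM in knockout arteries. With the marker mean as a covariate, 14 of 17714 genes were called, 3 of them lower, and Xirp1 was the only member among them, at a log2 fold change of -1.55 ± 0.217. In that fit Sorbs2 stood at -0.32 ± 0.11, Ldb3 at -0.16 ± 0.15 and Pdlim3 at -0.10 ± 0.0821, and the other 5 genes lay between 0.04 for Synpo2 and 0.17 for Pdlim5. The marker mean itself differed between the groups, at 8.382 ± 0.253 in Notch3+/+ and 7.772 ± 0.186 in Notch3-/- mice (log2 CPM, mean ± SD). Marker level and genotype are thus tied in this fit, which cannot separate them. Values relative to the markers share this limit. Relative to the marker mean, Xirp1 differed by -1.40 ± 0.118 on the log2 scale with no overlap between groups, whereas Sorbs2 differed by -0.20 ± 0.0636, Pdlim3 by -0.17 ± 0.0423, Nexn by 0.09 ± 0.0921 and Ldb3 by -0.04 ± 0.0826, all with overlapping groups. On this scale Sorbs3 was higher by 0.71 ± 0.119 without overlap, and Pdlim5 (0.55 ± 0.104), Fblim1 (0.50 ± 0.167) and Synpo2 (0.24 ± 0.0615) were higher with overlap. This scale was added after the data were seen. Heart muscle markers summed to 2.88 to 11 CPM and skeletal muscle markers to 14.9 to 50.2 CPM over the 32 libraries, and 0 of the 7 skeletal muscle markers and 0 of the 2 heart muscle markers tested were called in this comparison by edgeR or DESeq2 (0 at an unadjusted p under 0.05).

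**Figure D2:**
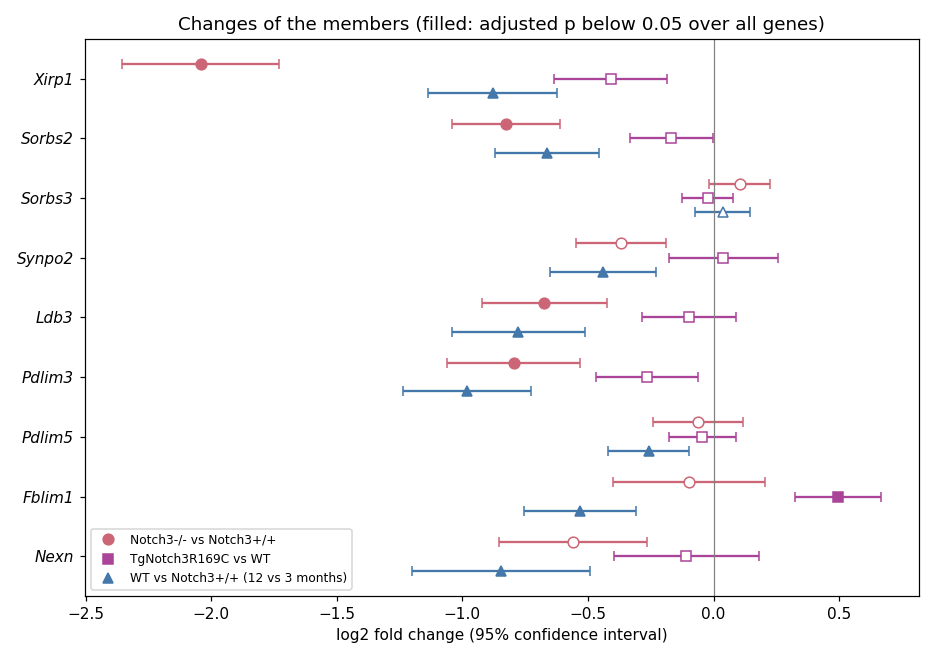
Log2 fold changes of the 9 genes with 95% confidence intervals (horizontal axis) in Notch3-/- against Notch3+/+ mice (circles), TgNotch3R169C against WT mice (squares) and 12-month-old WT against 3-month-old Notch3+/+ mice (triangles), n = 8 mice a group; filled symbols have an adjusted p below 0.05. Xirp1 reaches -2.04 in the knockout and -0.41 in the CADASIL model, and Fblim1 is the only member to the right of 0 among filled symbols.

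In the CADASIL model, Fblim1 was higher and the other 8 genes were not called, with log2 fold changes from -0.41 for Xirp1 to 0.04 for Synpo2. Fblim1 ranged from 60.8 to 86.9 CPM (median 74.7 CPM) in TgNotch3R169C mice and from 46.5 to 59.5 CPM (median 53.0 CPM) in WT mice. Every TgNotch3R169C mouse was above every WT mouse. The log2 fold change was 0.49 ± 0.0804, which is 1.41 times the control level. Fblim1 was the only member called, and the call was in the higher direction. Of the 17731 genes tested, 0.102% were called higher and 0.130% did not overlap in that direction. Fblim1 was chosen on this comparison, so nothing is read from these counts.

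Under the alternatives given here the Fblim1 difference kept its direction and size, whereas its call was lost in several. Without WT replicate 4, in which Fblim1 stood at 46.8 CPM, the log2 fold change was 0.47 and the call was lost. It was 0.47 with a covariate for choroid plexus markers and 0.47 with a covariate for neuron markers, both without a call, and 0.54 with a covariate for smooth muscle markers, with a call. In the 4 WT and 6 TgNotch3R169C libraries low in choroid plexus transcripts it was 0.52. In that fit edgeR's quasi-likelihood test called 2 of 18097 genes and 0 members (1 member had an unadjusted p under 0.05), so few calls were made at all. The 8 endothelial markers had a median log2 fold change of 0.07 and the 8 neuron markers one of 0.35, and 0 of either list were called by edgeR or DESeq2 (1 endothelial and 0 neuron markers had an unadjusted p under 0.05 with edgeR). The part of endothelial transcripts in the Fblim1 difference was not tested.

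Xirp1 ranged from 3.71 to 4.93 CPM (median 4.48 CPM) in WT mice and from 2.62 to 4.56 CPM (median 3.13 CPM) in TgNotch3R169C mice. The ranges overlapped and the gene was not called, with a log2 fold change of -0.41 ± 0.107. Sorbs2 had medians of 146 and 125 CPM, with a log2 fold change of -0.17 ± 0.0789. Pdlim3 had medians of 14.8 and 13.0 CPM, with a log2 fold change of -0.27 ± 0.0964. Without the libraries rich in choroid plexus transcripts these values were -0.28 ± 0.141 for Xirp1, -0.21 ± 0.108 for Sorbs2 and -0.24 ± 0.113 for Pdlim3. The intervals of the other 5 genes all included 0, and their log2 fold changes ran from -0.11 for Nexn to 0.04 for Synpo2. The median over the 9 genes was -0.10, against -0.0074 over all genes. The 10 smooth muscle markers had a median log2 fold change of -0.22, and 0 of them were called by edgeR or DESeq2 (5 had an unadjusted p under 0.05 with edgeR). With the marker mean as a covariate, Synpo2 stood at 0.24 ± 0.0677, and the members other than Synpo2 and Fblim1 ran from -0.34 for Xirp1 to 0.17 for Nexn. Relative to the marker mean, Fblim1 differed by 0.68 ± 0.11 without overlap. Synpo2 differed by 0.23 ± 0.0568 with overlap, and the others, from -0.23 for Xirp1 to 0.17 for Sorbs3, overlapped as well.

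The changes in the mutants can be set against each other as a description, since the choice of the members had used them. The change in TgNotch3R169C mice minus the change in Notch3-/- mice was 1.63 ± 0.180 for Xirp1 and 0.66 ± 0.133 for Sorbs2 on the log2 scale. These were the 2 members called in a fit of all 32 mice, both in the higher direction, against 0.264% of all 18555 genes. For Fblim1 the difference was 0.60 ± 0.170 and was not called. Without the libraries rich in choroid plexus transcripts Xirp1 was called and Sorbs2, at 0.62, was not. Nothing is read from these calls, and the mutants also differed in age.

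The WT groups of the series differed in age and in mouse line, and these cannot be told apart. In 12-month-old WT arteries, 8 of the 9 genes were lower than in 3-month-old Notch3+/+ arteries, by edgeR's quasi-likelihood test with an adjusted p below 0.05 over 17643 genes. Of all genes tested, 4.05% were called lower. Sorbs3 was the exception, at a log2 fold change of 0.04 ± 0.0515. This comparison shares its Notch3+/+ mice with the knockout comparison and its WT mice with the CADASIL comparison, and both of those chose the members. The count is thus not independent of the choice, and nothing is read from it. The changes of the 9 genes in this comparison are given as a description without p-values.

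Pdlim3 had a median of 14.8 CPM at 12 months, with a range of 13.4 to 19.3 CPM, and did not overlap with the 25.1 to 45.3 CPM at 3 months. Its log2 fold change was -0.98 ± 0.121. Ldb3 ranged from 7.22 to 10.6 CPM (median 9.05 CPM) at 12 months and did not overlap with the younger mice. Its log2 fold change was -0.78 ± 0.125. Nexn ranged from 14.2 to 30.2 CPM (median 19.6 CPM), overlapped with the younger mice, and changed by -0.85 ± 0.168. Synpo2 ranged from 65.5 to 103 CPM (median 90.5 CPM) and changed by -0.44 ± 0.1.

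Pdlim5, at 171 to 224 CPM (median 197 CPM), changed by -0.26 ± 0.0758 and was called in edgeR's quasi-likelihood test. That call was lost in 11 of the 16 fits that left out 1 mouse. Xirp1 and Sorbs2 changed by -0.88 ± 0.121 and -0.66 ± 0.0981, without overlap between the groups. Fblim1 changed by -0.53 ± 0.105, with overlap. Of the 9 genes, 4 did not overlap between the groups in the lower direction, against 0.845% of all genes tested. The median over the 9 genes was -0.66, against 0.0026 over all genes.

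The same libraries differed in smooth muscle transcripts, choroid plexus transcripts and some markers of other cell types. All 10 smooth muscle markers were lower at 12 months, with a median log2 fold change of -0.77 and a summed level of 2180 to 3120 CPM. Of the 8 choroid plexus markers, 6 were higher, with a median of 3.95. In other lists of 8 markers, 3 oligodendrocyte markers were higher (median 0.64) and 3 fibroblast markers were lower (median -0.09). Pericyte and astrocyte markers each had 1 lower and 2 higher, and endothelial and macrophage or microglia markers each had 1 lower. By edgeR or DESeq2, 0 neuron markers were called (0 at an unadjusted p under 0.05 with edgeR). Of all genes tested, 4.05% were called lower and 3.87% higher. Without the 4 WT libraries rich in choroid plexus transcripts, 402 of 18086 genes were called, 207 of them lower. Among these were 4 members (Xirp1, Sorbs2, Ldb3 and Pdlim3), with log2 fold changes from -0.94 to -0.63. Of the 4 members no longer called, Synpo2 moved from -0.44 to -0.28, Nexn from -0.85 to -0.72, Fblim1 stayed at -0.53 and Pdlim5 moved from -0.26 to -0.32. With the smooth muscle marker mean as a covariate, 0 of 17643 genes were called by edgeR's quasi-likelihood test (2249 genes, 1 member among them, had an unadjusted p under 0.05), so the absence of calls is not particular to the members. In that fit Fblim1 stood at -0.62 ± 0.223, Xirp1 at -0.45 ± 0.232 and the other 7 genes between -0.20 and 0.18, with Synpo2 and Nexn turned to 0.16 and 0.18. The marker mean did not overlap between these groups, at 7.337 to 7.894 in WT and 8.084 to 8.858 in Notch3+/+ mice (log2 CPM). The fit therefore cannot separate marker level from group. Relative to the marker mean, the groups overlapped for every member but Sorbs3, which was higher by 0.78 ± 0.118 at 12 months.

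Across all 4 groups the order of mean levels was not the same for each gene. Xirp1 was highest in Notch3+/+ mice at 8.14 ± 1.72 CPM, followed by WT at 4.42 ± 0.391 CPM, TgNotch3R169C at 3.33 ± 0.591 CPM and Notch3-/- at 1.97 ± 0.343 CPM. WT and TgNotch3R169C overlapped, and the groups above and below them did not overlap with their neighbours. For Sorbs2, Ldb3 and Pdlim3, Notch3+/+ mice stood above the other 3 groups, and those 3 groups overlapped with each other in range. Sorbs2 had means of 130 ± 12.3 CPM in Notch3-/- mice, 146 ± 11.6 CPM in WT mice and 130 ± 19.6 CPM in TgNotch3R169C mice, so the knockout at 3 months and both groups at 12 months lay at similar levels.

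Fblim1 was arranged differently. Its mean was 76.6 ± 14.5 CPM in Notch3+/+, 74.8 ± 9.89 CPM in TgNotch3R169C and 71.3 ± 16.9 CPM in Notch3-/- mice, all with overlapping ranges, and 53.1 ± 5.06 CPM in WT mice. The WT range overlapped with both 3-month-old groups and not with TgNotch3R169C. The TgNotch3R169C mice thus lay above their own controls and within the range of the 3-month-old mice.

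Within groups, the genes were followed against the level of smooth muscle markers. Some members had been chosen for a fall in the knockout, where most of these markers fell too. The relations below are thus not independent of that choice. After the group mean was subtracted from each gene and from the mean of the 10 smooth muscle markers, 6 of the 9 genes correlated with that mean over the 32 mice (100000 permutations within groups, two-sided, Benjamini-Hochberg over 9 genes). Among all 18545 genes other than the markers, 2.42% had an r of 0.531 or more, the lowest r of these 6. That limit was taken from the members themselves, so nothing is read from the share. Pdlim3 (Pearson's r = 0.834, Spearman's rho = 0.819), Nexn (r = 0.828, rho = 0.832) and Synpo2 (r = 0.821, rho = 0.760) had the strongest relations, each with a permutation p of 1e-05 for both measures, the smallest possible here, and an adjusted p of 3e-05. Ldb3 followed with r = 0.678 (permutation p = 0.00013, adjusted 0.000292) and rho = 0.679 (permutation p = 0.00013, adjusted 0.000292). Members and markers were measured in the same libraries and share their depth and scaling.

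Sorbs2 had r = 0.571 (permutation p = 0.0019, adjusted 0.00342) and rho = 0.549 (permutation p = 0.00211, adjusted 0.00321). Xirp1 had r = 0.531 (permutation p = 0.00512, adjusted 0.00768) and rho = 0.565 (permutation p = 0.00214, adjusted 0.00321). No relation was shown for Pdlim5, with r = 0.349 (permutation p = 0.0759, adjusted 0.0976) and rho = 0.278 (permutation p = 0.153, adjusted 0.197). Fblim1 had r = 0.223 (permutation p = 0.268, adjusted 0.302) and rho = 0.162 (permutation p = 0.401, adjusted 0.451). Sorbs3 had r = 0.011 (permutation p = 0.956, adjusted 0.956) and rho = -0.0477 (permutation p = 0.802, adjusted 0.802).

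The 2 mice farthest from the median marker mean were Notch3+/+ replicates 4 and 6. Without them, r was 0.760 for Pdlim3, 0.790 for Nexn, 0.795 for Synpo2, 0.574 for Ldb3, 0.472 for Xirp1 and 0.387 for Sorbs2. Without them it was 0.321 for Pdlim5, 0.287 for Fblim1 and -0.00187 for Sorbs3. No p-value was computed without these 2 mice, so it is not known which genes would still pass the threshold. Within single groups of 8 mice, r for Nexn lay between 0.784 and 0.922 and r for Synpo2 between 0.774 and 0.868. For Pdlim3 it ran from 0.510 in TgNotch3R169C mice to 0.97 in Notch3+/+ mice. Xirp1 ran from 0.203 in WT mice to 0.649 in Notch3+/+ mice. Sorbs2 had 0.931 in Notch3+/+ mice and -0.158 in TgNotch3R169C mice, and Pdlim5 had -0.389 in WT mice and 0.654 in TgNotch3R169C mice. These differences between groups were not tested. Over the 25 mice without the libraries rich in choroid plexus transcripts, r was 0.853 for Pdlim3, 0.798 for Synpo2, 0.788 for Sorbs2, 0.769 for Nexn, 0.668 for Ldb3 and 0.605 for Xirp1, and the same 6 genes passed the threshold.

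**Figure D3:**
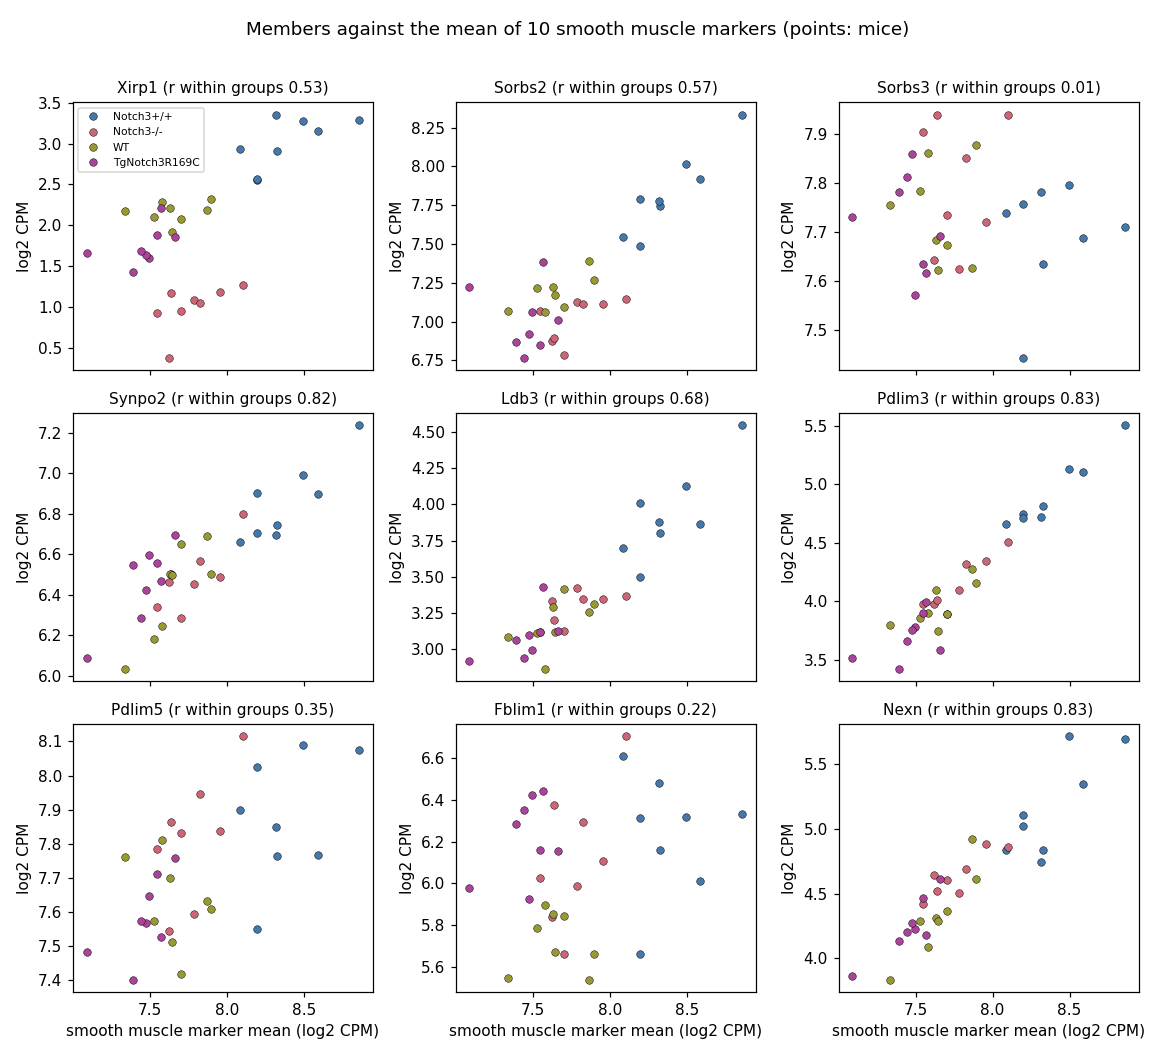
Log2 CPM of each of the 9 genes (vertical axes) against the mean log2 CPM of 10 smooth muscle markers (horizontal axis) in 32 mice, coloured by group; r is Pearson's correlation after group means were subtracted. Pdlim3, Nexn and Ldb3 of all groups lie along a common band, and the 8 Notch3-/- mice fall below the band for Xirp1. The TgNotch3R169C mice lie above the WT mice for Fblim1, and for Synpo2 they lie above WT mice of like marker mean.

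The genes also varied with each other. Over the 32 mice after subtraction of group means, the closest pairs were Synpo2 with Nexn (r = 0.787), Sorbs2 with Ldb3 (r = 0.738), Pdlim3 with Nexn (r = 0.729) and the chromosomal neighbours Sorbs2 with Pdlim3 (r = 0.718). The lowest values involved Sorbs3, down to -0.239 with Ldb3. Without the libraries rich in choroid plexus transcripts these values were 0.741, 0.843, 0.711, 0.812 and -0.139. These are descriptions over mice whose libraries also varied in the level of smooth muscle markers.

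The genes most like Xirp1, Sorbs2 and Fblim1 by the same measure were ranked among 18555 genes. Xirp1 was closest to Palld (r = 0.741), which encodes palladin, an actin-bundling protein of dense bodies and Z-discs, and then to Uba2 (r = 0.684), Nap1l4 (r = 0.675), Pde3a (r = 0.675), a cyclic nucleotide phosphodiesterase of vascular smooth muscle, and Mob2 (r = 0.674). Sorbs2 was closest to Enah (r = 0.798), an actin polymerization factor of the Ena/VASP family, to Itga7 (r = 0.777), a laminin receptor subunit of muscle, to Rasl12 (r = 0.750), to Itga8 (r = 0.739), another integrin subunit, and to Ldb3 (r = 0.738). Fblim1 was closest to Itga5 (r = 0.790), the fibronectin receptor subunit, followed by Rasip1 (r = 0.788), Sh2b3 (r = 0.784), She (r = 0.780) and Map3k11 (r = 0.779). The lists of Xirp1, Sorbs2 and Fblim1 had no gene in common. Over the 25 mice without the libraries rich in choroid plexus transcripts, r with these genes was 0.641 to 0.756 for Xirp1, 0.780 to 0.878 for Sorbs2 and 0.805 to 0.819 for Fblim1.

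Other genes of the same machinery were taken from lists drawn up by function. Of 33 linkers between integrins and actin, 1 was lower in Notch3-/- arteries and 0 were higher. The called gene was Csrp1, a LIM protein of smooth muscle, at a log2 fold change of -0.41 ± 0.0810. The median of the 33 genes was -0.03. In TgNotch3R169C arteries 0 of the 33 were called by edgeR, with 5 at an unadjusted p under 0.05 and 1 called by DESeq2. In 12-month-old WT against 3-month-old Notch3+/+ arteries, 13 were lower and 1 was higher, with a median of -0.17. The largest decreases were in Csrp1 (-0.46), the actin crosslinker filamin A (Flna, -0.44), Csrp2 (-0.42), vinculin (Vcl, -0.39), Lpp (-0.37), Evl (-0.32), Enah (-0.31) and kindlin-2 (Fermt2, -0.29). The gene that rose was Pxn, which encodes the adaptor paxillin, at 0.12 ± 0.0357.

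Of 22 Z-disc and striated muscle scaffold genes, 15 passed the filter on low counts. In Notch3-/- arteries 0 of the 15 were called by edgeR, with 3 at an unadjusted p under 0.05 and 1 called by DESeq2. In TgNotch3R169C arteries 0 were called by either tool, with 2 at an unadjusted p under 0.05. In the comparison between the WT groups, Palld (-0.80 ± 0.0977), the intermediate filament gene Des (-0.43 ± 0.102) and Filip1 (-0.40 ± 0.107) were lower at 12 months. Neb, which encodes the giant scaffold protein nebulin, was higher (0.93 ± 0.246). The median of the 15 genes was -0.04.

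Among 8 paralogs of the members, only Synpo2l, the paralog of Synpo2, was lower in Notch3-/- arteries, at -0.86 ± 0.190, and the median was -0.07. In TgNotch3R169C arteries 0 of the 8 were called by edgeR, with 1 at an unadjusted p under 0.05 and 1 called by DESeq2. At 12 months Synpo2l (-0.77 ± 0.177), Pdlim1 (-0.44 ± 0.0992), Pdlim7 (-0.37 ± 0.0480) and Synpo (-0.31 ± 0.0620) were lower than at 3 months, and 0 were higher. The Xirp1 paralog Xirp2 was not called in any of these comparisons. Its group means were only 0.458 CPM (TgNotch3R169C) to 0.664 CPM (Notch3+/+), so the absence of a call says little. Synpo2l was also low, with group means from 1.1 CPM (TgNotch3R169C) to 2.13 CPM (Notch3+/+).

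Without the libraries rich in choroid plexus transcripts, fewer genes of these lists were called between the WT groups. There 3 linkers, 1 Z-disc gene and 1 paralog were lower and 0, 1 and 0 were higher, and the medians were -0.16, -0.04 and -0.29. In the knockout comparison 1 linker was lower, and 0 Z-disc genes and 0 paralogs were called by edgeR (4 and 1 at an unadjusted p under 0.05). In the CADASIL comparison 0 genes of the 3 lists were called by edgeR, with 7, 3 and 2 at an unadjusted p under 0.05.

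**Figure D4:**
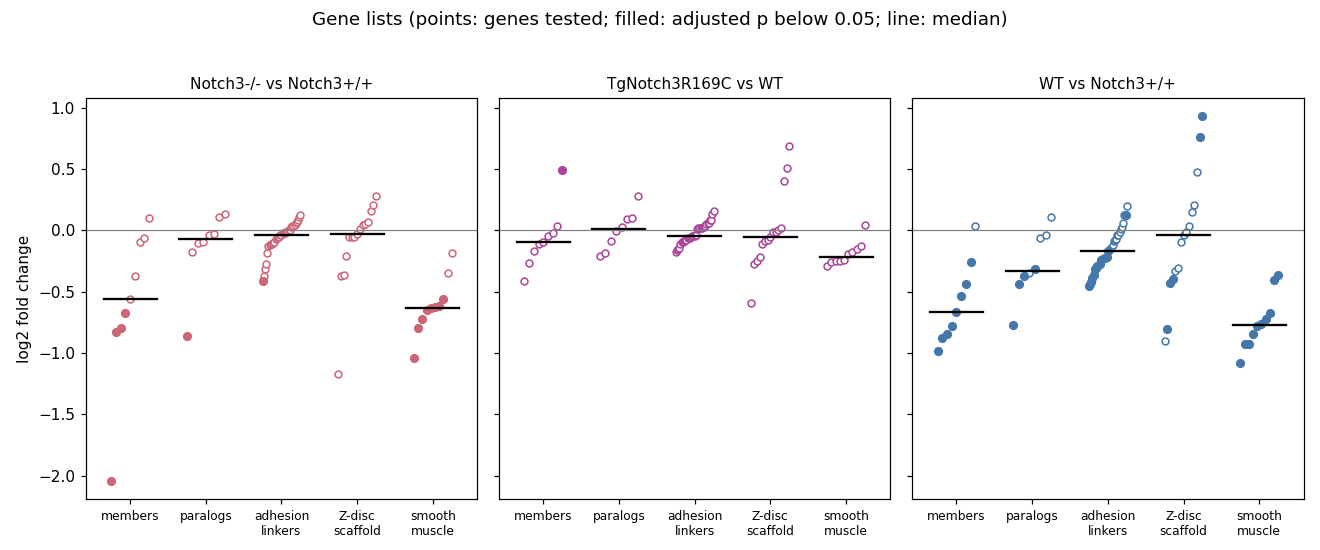
Log2 fold changes (vertical axis) of the genes tested in 5 lists, with 1 point a gene, filled where the adjusted p was below 0.05, and the list median as a line, for Notch3-/- against Notch3+/+ mice, TgNotch3R169C against WT mice and WT against Notch3+/+ mice. The members and the smooth muscle markers have medians of -0.56 and -0.63 in the first panel, where the 33 adhesion linkers have a median of -0.03.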

How the data were processed

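RNA had been extracted from the brain arteries of 32 mice and sequenced from poly(A)-selected stranded libraries (Illumina Stranded mRNA Prep). The authors deposited raw counts of reads per gene for all 32 libraries. The submitters' processing notes name bcl2fastq 2.20.0.422, cutadapt 1.10, Bowtie2 2.2.8, STAR 2.5.3a, HTSeq 0.6.1p1 and the mm39 build, without saying which step each served. The annotation release and the strand setting of the counting are not given in the sources used here. Gene symbols were matched from Ensembl identifiers.

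The tests were run with edgeR 4.0.16 under R 4.3.3. Genes were kept by filterByExpr, libraries were scaled by TMM, and pairs of groups were compared by edgeR's quasi-likelihood test with Benjamini-Hochberg adjustment over all genes kept, with a threshold of 0.05. The difference between the mutants was an interaction contrast in a fit of the 4 groups. Libraries held 20289487 to 54481934 counts. Levels are CPM on the TMM scale, and values per kilobase used exon lengths from GENCODE vM21 on GRCm38, another build than that of the counts. Promoter windows, chromosomes and distances between genes also refer to GRCm38 and not to the build of the counts. Correlations used log2 CPM and 100000 permutations of mice within groups. DESeq2 1.42.0, limma 3.58.1 (voom), other scalings and filters, marker covariates, a replicate block and the removal of each mouse were tried as alternatives. The removal of libraries with more than 2000 CPM of choroid plexus markers was chosen after seeing the data. Scripts were tested on simulated counts.

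The members and the gene lists were chosen with earlier results of these data known. Genes named in the text are the members, the genes of the lists called in a comparison (up to 8 for each list and comparison, by size of change), the 5 genes most correlated with Xirp1, Sorbs2 and Fblim1, Notch3, and genes that overlap a member. Xirp2 was named after its values were seen. Not every called gene of the lists is reported here by name.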

Additional observations from a re-analysis of the deposited data

Results flagged for a closer look

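Among the 36 sets of 8 mice (9 genes in 4 groups), 2 held a mouse far from the others by Dixon's test, where chance alone flags about 1 set in 20. Xirp1 stood at 1.24 CPM in Notch3-/- replicate 3, with the next mouse of that group at 1.84 CPM, and every other Notch3-/- mouse also lay below every mouse of the other groups. Ldb3 stood at 10.7 CPM in TgNotch3R169C replicate 6, with the next mouse at 8.65 CPM.

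The change in TgNotch3R169C mice minus the change in Notch3-/- mice was 1.63 for Xirp1 and 0.66 for Sorbs2 on the log2 scale, which set these genes apart between the mutants. The members were chosen with both changes in view, so these values are a description and not a test, and the mutants differed in age as well as in genotype.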

How the results depend on the processing

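In the knockout comparison, leaving out each mouse gave 4 to 5 members and 78 to 141 genes called, against 4 and 115. DESeq2 called 278 genes, a fit of all 4 groups 174, and a smooth muscle covariate 14 genes and 1 member. DESeq2 and the fit of all 4 groups each added Synpo2 and Nexn to the members called. In the CADASIL comparison (20 genes, 1 member), DESeq2 called 79 genes, the smooth muscle covariate 31, the choroid plexus covariate 11 and the neuron covariate 8, and leaving out each mouse gave 11 to 26 genes and 0 to 1 members. By edgeR, 0 members were called with the choroid plexus or neuron covariate (3 and 4 at an unadjusted p under 0.05), in the fit of all 4 groups (3) and without WT replicate 4 (4). Without the libraries rich in choroid plexus transcripts, 2 genes and 0 members were called (1 at an unadjusted p under 0.05).

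Between the WT groups (1398 genes, 8 members), DESeq2 called 2266 genes, and leaving out each mouse gave 895 to 1621 genes and 7 to 8 members, the lowest without Notch3+/+ replicate 7. The choroid plexus covariate left 250 genes and 3 members, with Sorbs3 at -0.0435, and removal of the choroid-rich libraries 402 genes and 4 members, with Sorbs3 at -0.0500. The smooth muscle covariate left 0 genes by edgeR (2249 at an unadjusted p under 0.05) and 0 members, with Synpo2 at 0.16 and Nexn at 0.18. For the difference between the mutants (65 genes, 2 members), DESeq2 called 155 genes and added Ldb3 to the members called. With the smooth muscle covariate 1 member was called. Removal of the choroid-rich libraries left 39 genes and 1 member. The cause of these shifts was not tested. Correlations with the marker mean ranged, over fits that left out 1 mouse, from -0.0852 to 0.0588 for Sorbs3 and from 0.253 to 0.432 for Pdlim5, which passed the threshold without WT replicate 4.

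No regular pairing of mice by replicate number was seen, although this check cannot exclude a weak or partial pairing. Same-numbered mice correlated at -0.138 to 0.338 in the knockout comparison, -0.247 to 0.424 in the CADASIL comparison and -0.187 to 0.238 between the WT groups, with 3, 1 and 2 of 8 mice closest to their own number. With the replicate number as a block, 97, 6 and 715 genes and 4, 1 and 6 members were called in these comparisons, and 63 genes and 2 members in the difference between the mutants.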
